A study of Mus musculus with 8 samples.

Results

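The Hox cofactors described here are the homeobox genes Pbx2, Pbx3 and Pbx4, Meis1, Meis2 and Meis3, and Pknox1 and Pknox2, chosen by gene symbol from the deposited table. These 8 genes are among 55573 in the table and 16262 that passed the filter on low counts, and all 8 passed it. Poly(A) RNA was measured in C57BL/6 mouse embryos of embryonic day 9.5, in the posterior trunk, that is the tissue behind a division between somites 12 and 13. The parents were heterozygous for a knockout allele of Prtg, the gene of the transmembrane receptor protogenin. There were 2 wild-type libraries (WT), 3 of Prtg+/- embryos (Het) and 3 of Prtg-/- embryos (KO), and n is 2, 3 and 3 throughout. The labels name no litters, sexes or pools of embryos, so the p-values reflect only how these libraries spread, which may be technical. The study's title concerns HOX expression at the trunk-to-tail transition, and the comparisons here ask whether the partners of Hox proteins differed between the genotypes.

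PBX, MEIS and PKNOX proteins (the last also called PREP) belong to the TALE class of homeodomain proteins, named for extra amino acids in a loop of the homeodomain. PBX proteins bind DNA side by side with HOX proteins and sharpen their choice of sites, while MEIS and PKNOX proteins bind PBX, help to keep it in the nucleus and can join the complex on DNA. Meis1 and Meis2 are known in mouse embryos for expression in the proximal limb and for their response to retinoic acid. Meis3 is known from the hindbrain of frog and fish embryos, and Pbx4 for its expression in the testis of adult mice.

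The genes are spread over 6 chromosomes. In the coordinates of the table (GRCm38), Meis1 lies on the minus strand of chromosome 11 (18879817 to 19018985) and Meis2 on the minus strand of chromosome 2 (115863064 to 116065839), where Pbx3 also lies (34171457 to 34373142, minus strand). Meis3 lies on the plus strand of chromosome 7 (16175090 to 16186504) and Pbx4 on the plus strand of chromosome 8 (69832491 to 69872292). Pbx2 (34591266 to 34597400, plus strand) and Pknox1 (31564734 to 31607693, plus strand) lie on chromosome 17, and Pknox2 on the minus strand of chromosome 9 (36890982 to 37147407), the chromosome of Prtg. The spans of all 8 match GENCODE release M21, which lists between 5 transcripts (Pbx2) and 19 (Meis2) per gene, and the gene counts do not separate these isoforms.

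RefSeq promoters (GRCm38.p6), 250 bases before to 50 bases after a gene's start, were found for 5 of the 8 genes. Bases before the start that GENCODE places in no exon are shown for 3 of them, on which the results turn: Meis1, with the smallest p of the 8 genes in KO against WT, Pbx2, with the highest level, and Pbx4, the 1 gene whose values in KO lay above those in WT and in Het on average. They are written 5′ to 3′ on the strand of the gene, with capitals marking a CCAAT box (CCAAT, or ATTGG where it is on the other strand), a motif added after the sequences were seen. The positions are chr11:19018986-19019219 for Meis1 (minus strand), chr17:34592009-34592258 for Pbx2 (plus strand, inside the span of the gene in the table) and chr8:69832374-69832490 for Pbx4 (plus strand).
Meis1: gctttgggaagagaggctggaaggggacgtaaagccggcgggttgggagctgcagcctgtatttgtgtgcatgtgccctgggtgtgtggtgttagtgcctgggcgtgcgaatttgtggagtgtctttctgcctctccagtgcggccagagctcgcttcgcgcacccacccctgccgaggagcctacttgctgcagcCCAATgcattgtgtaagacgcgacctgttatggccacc
Pbx2: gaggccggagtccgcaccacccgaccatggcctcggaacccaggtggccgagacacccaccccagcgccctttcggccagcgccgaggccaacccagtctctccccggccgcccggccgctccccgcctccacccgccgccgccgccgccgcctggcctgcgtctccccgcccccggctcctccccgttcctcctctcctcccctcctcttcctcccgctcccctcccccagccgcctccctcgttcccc
Pbx4: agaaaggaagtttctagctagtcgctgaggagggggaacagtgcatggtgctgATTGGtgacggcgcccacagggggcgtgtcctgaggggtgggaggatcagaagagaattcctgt
The MEIS motif TGACAG and the PBX-HOX motif TGATNNAT, searched on both strands of the 300 bases, were in 0 of the 5 promoters and in 19.2% and 8.85% of 32851 RefSeq promoters. A CCAAT box was in 3 of the 5, against 37.4% of all promoters, at -54 in Meis1, -210 in Meis2 and -197 and -30 in Pbx4, counted from the start to the first base of the match. The Pbx2 window was 76.0% G and C, more than 96.9% of all promoters, and the Meis2 window 51.0%, near the median of 52.7%. A match, or none, in these letters says nothing about binding.

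Total counts per library lay between 16874860 and 17511964. Libraries carry the genotype and the pair of numbers of their column name, and those with the same first number are called a column set (meaning not given in the sources used here). Prtg itself was at 317 and 386 CPM in WT (read counts scaled to a common library total, after TMM normalization), 240.5 to 282 in Het and 237 to 268 in KO, with Het and KO overlapping. These values do not check the labels, since which exons the allele removes was not given in the sources used here. Among the libraries, KO 1-3, WT 1-2, Het 2-4 and Het 1-1 had Xist levels of 803 to 1101 CPM and the other 4 had 1.52 to 3.57, so every library of column set 1 was high in Xist. The library KO 1-3 stood apart: it held the lowest value of 25.5% and the highest of 26.9% of the tested genes, where 8.33% to 13.1% fell to each other library. Markers of the head (summed 0.403 to 1.52 CPM over 4 genes) and of the heart (2.07 to 3.46 CPM over 4 genes) were near 0, and those of the tailbud (385 to 592 CPM over 6 genes) were not.

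The members differed widely in level. Levels between genes are given per exonic length, as FPKM computed from the counts, as the mean ± SD over the 8 libraries. Pbx2 was at 59.1 ± 2.90 FPKM, above 94.96% of the tested genes, and its lowest library (53.9) lay above the highest library of any other member. Meis3 followed at 17.6 ± 1.58 and Meis2 at 14.0 ± 1.12 FPKM. The ranges of Meis3 and Meis2 overlapped, although Meis3 was higher in 8 of 8 libraries. That order rests on 1 exonic length per gene, 3173 bases for Meis3 and 12043 for Meis2. In CPM, which is not per length, Meis2 was the higher, at 169 against 55.9 on average. Pknox2 (9.17 ± 0.492 FPKM) and Meis1 (8.25 ± 1.01 FPKM) overlapped, as did Pbx3 (5.24 ± 0.705 FPKM) and Pknox1 (4.38 ± 0.478 FPKM), each pair being in the same order in 7 of 8 libraries. Pbx4 was the lowest at 1.44 ± 0.460 FPKM, above 30.3% of the tested genes, and rested on 33 to 89 reads per library.

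**Figure D1:**
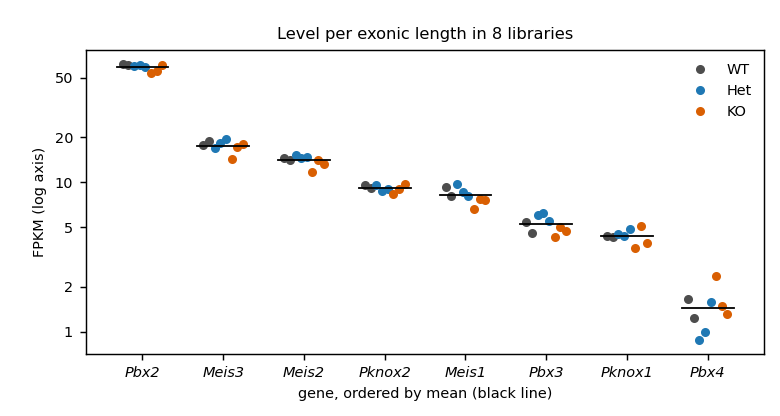
Level of the 8 genes in FPKM on a log axis, 1 point per library, coloured by genotype, with the mean over 8 libraries as a black line. Pbx2 stands above all others and Pbx4 below, and the neighbours Meis3 and Meis2, Pknox2 and Meis1, and Pbx3 and Pknox1 overlap.

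The families are described next by the share of each gene in the summed level of its family. Of the summed FPKM of the 3 Meis genes, Meis3 made up 44.4% in WT, 43.4% in Het and 44.7% in KO (43.8% to 46.4%), with SDs of 2.58 and 2.82 in WT and Het. Meis2 made up 34.5% ± 0.462, 35.5% ± 0.757 and 35.4% ± 1.16, and Meis1 21.1% ± 2.12, 21.1% ± 2.06 and 19.9% ± 0.428. Over the libraries the share of Meis1 ran from 19.2% to 23.3%, and the genotypes overlapped for all 3 genes. Of the sum of Pknox1 and Pknox2, Pknox2 made up 63.9% to 71.4%, with both ends in KO libraries. Of the sum of Pbx2, Pbx3 and Pbx4, Pbx2 made up 89.0% to 91.2%, Pbx3 6.93% to 9.22%, and Pbx4 1.33% to 2.39% in 7 libraries and 3.90% in KO 1-3.

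The MEIS genes, whose proteins bind PBX and also posterior HOX proteins, are given first for the genotypes. Meis1 was at 98.7 and 84.9 CPM in WT, at 103, 90.9 and 85.7 CPM in Het and at 70.1, 82.0 and 79.8 CPM in KO. The 3 KO libraries lay below the 5 others, the nearest being KO 2-2 at 82.0 CPM and WT 2-1 at 84.9 CPM. The KO minus WT value of Meis1 was -0.25 ± 0.10 on the log2 scale (± SE; 95% interval -0.47 to -0.028; edgeR adjusted p = 0.657). Without WT 1-2 it was -0.14, and in all fits without 1 library between -0.36 and -0.14. Against Het it was -0.27 ± 0.09 (edgeR adjusted p = 0.336), and against the average of WT and Het, each genotype weighted equally, -0.26 ± 0.08 (edgeR adjusted p = 0.266). That last comparison shares its libraries with the pairwise ones. Meis1 was called in 1 of the alternative fits, edgeR with no filter on low counts for KO against the WT and Het average (-0.26, adjusted p = 0.0303), and its adjusted p over all alternatives of that contrast ran from 0.0303 to 0.601.

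Meis2 was at 174 and 169.6 CPM in WT, at 184, 177 and 177 CPM in Het and at 141, 170.5 and 159 CPM in KO. All KO libraries lay below all Het libraries, while KO 2-2 lay above WT 2-1. Its KO minus Het value was -0.19 ± 0.07 (95% interval -0.35 to -0.040; edgeR adjusted p = 0.377) and its KO minus WT value -0.13 ± 0.08 (edgeR adjusted p = 0.736). Meis3 was at 56.1 and 60.4 CPM in WT, at 54.0, 57.8 and 61.7 CPM in Het and at 45.4, 54.4 and 57.1 CPM in KO. The KO libraries other than KO 1-3 lay within the Het range, and the KO minus Het value of Meis3 was -0.15 ± 0.09 (edgeR adjusted p = 0.571).

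**Figure D2:**
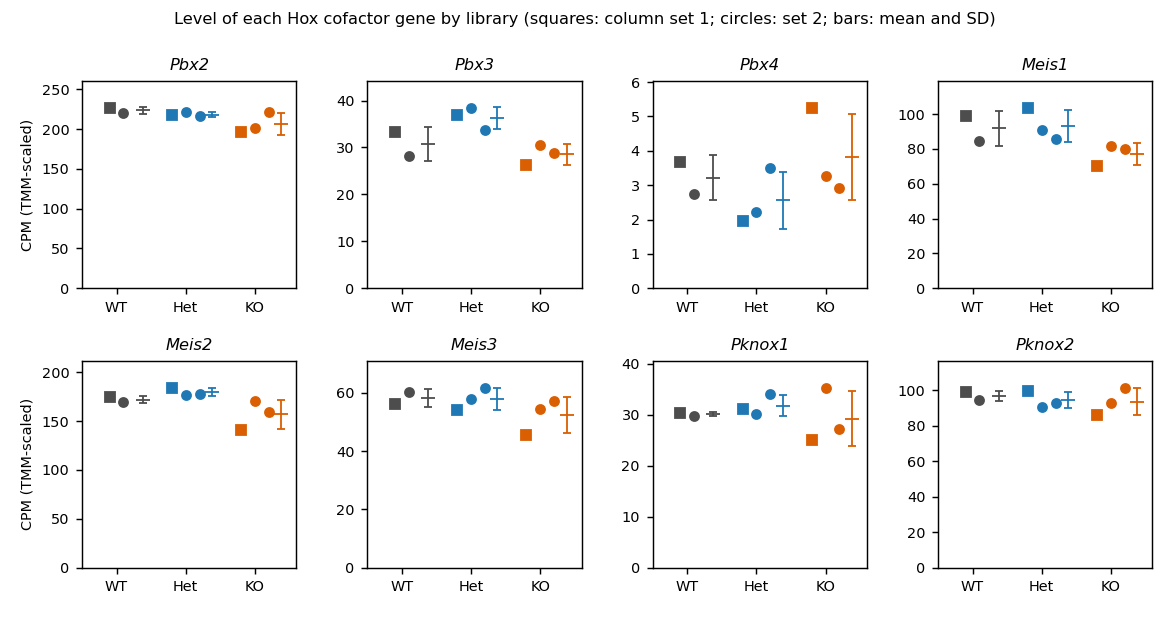
CPM after TMM scaling of each gene in each library, grouped by genotype, with an axis from 0; squares are libraries of column set 1, circles of set 2, and the bars are the mean and SD. For Meis1 all 3 KO libraries lie below the 5 others, and KO 1-3 is the lowest library for every gene but Pbx4.

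Among the PBX genes, which encode the direct DNA-binding partners of HOX proteins, Pbx3 had the smallest p between KO and Het. Pbx3 was at 33.3 and 28.1 CPM in WT, at 36.8, 38.4 and 33.7 CPM in Het and at 26.2, 30.6 and 28.8 CPM in KO. Every KO library lay below every Het library, and the WT libraries lay among the KO libraries or between the groups. The KO minus Het value of Pbx3 was -0.35 ± 0.10 (95% interval -0.56 to -0.13; edgeR adjusted p = 0.261), with rank 267 by p among the tested genes. The KO minus WT value was -0.11 ± 0.11 (edgeR adjusted p = 0.858), and the Het minus WT value 0.24 ± 0.11 (edgeR adjusted p = 1.00). The comparisons of KO and of WT with Het share the Het libraries and are not independent.

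Pbx2, the most abundant member, was at 226 and 221 CPM in WT, at 218, 221 and 216 CPM in Het and at 196, 202 and 222 CPM in KO. KO 2-3 lay among the WT and Het libraries and the other KO libraries below them. The 95% interval of Pbx2 for KO minus WT ran from -0.26 to 0.034, or from 0.835-fold to 1.02-fold, around a value of -0.11 ± 0.07 (edgeR adjusted p = 0.736). Pbx4 was at 3.68 and 2.75 CPM in WT, at 1.96, 2.23 and 3.51 CPM in Het and at 5.24, 3.28 and 2.93 CPM in KO. The groups overlapped, and KO 1-3 alone lay above 3.68 CPM. Its KO minus Het value was 0.57 ± 0.29 (95% interval -0.077 to 1.21; edgeR adjusted p = 0.511), and 0.27 without KO 1-3.

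The PKNOX genes, which encode PBX partners related to MEIS, had the values nearest to 0 in KO minus WT. Pknox1 was at 30.4 and 29.8 CPM in WT, at 31.1, 30.1 and 34.1 CPM in Het and at 25.0, 35.3 and 27.3 CPM in KO. The KO libraries thus held both the lowest and the highest value, and the KO minus WT value was -0.045 ± 0.14 (95% interval -0.34 to 0.25; edgeR adjusted p = 0.962). Pknox2 was at 99.0 and 94.7 CPM in WT, at 99.6, 90.8 and 92.9 CPM in Het and at 86.3, 92.9 and 101.5 CPM in KO. Here too KO held both ends, and the KO minus WT value was -0.049 ± 0.08 (95% interval -0.22 to 0.12; edgeR adjusted p = 0.916).

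Over the 8 genes, edgeR's quasi-likelihood test called 0 in each comparison at a Benjamini-Hochberg adjusted p below 0.05, as did DESeq2 and limma. Of all tested genes, 0.0369% were called in KO minus WT, 0.191% in KO minus Het, 0% in Het minus WT and 0.332% in KO minus the WT and Het average. Split by direction, 0.129% were called lower and 0.0615% higher in KO minus Het, and 0.258% lower and 0.0738% higher in KO minus the WT and Het average, while all 6 genes called in KO minus WT were lower. At an unadjusted p below 0.05 there were 1, 3, 1 and 3 of the 8 genes, where 7.19%, 10.9%, 1.8% and 12% of the tested genes reached it. In KO minus WT, 7 of the 8 values lay below 0, with a median of -0.11, where 48.7% of all tested genes lay below 0 with a median of 0.0058. The same 7 genes, all but Pbx4, lay below 0 in KO minus Het (median -0.13), and in Het minus WT 4 of 8 did (median 0.0074). The groups did not overlap for 1 gene lower in KO against WT (Meis1), where 10.5% of the tested genes were so. Against Het the count was 3 (Pbx3, Meis1 and Meis2; background 8.5%), and against WT and Het together 1 (Meis1; background 4.41%). In Het minus WT, 2 genes (Pbx3 and Meis2) were higher without overlap, where 9.19% of the tested genes were so. In the opposite directions the count was 0 of the 8 in each comparison, against 11.2% of the tested genes higher in KO than WT, 8.26% higher in KO than Het, 8.92% lower in Het than WT and 4.21% higher in KO than in both. The intervals set bounds on what these libraries leave possible: in KO minus WT the bounds over the 8 genes ran from -0.47 (Meis1 and Pbx4) to 0.96 (Pbx4). These p-values do not show that the genes are at the same level in the genotypes.

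**Figure D3:**
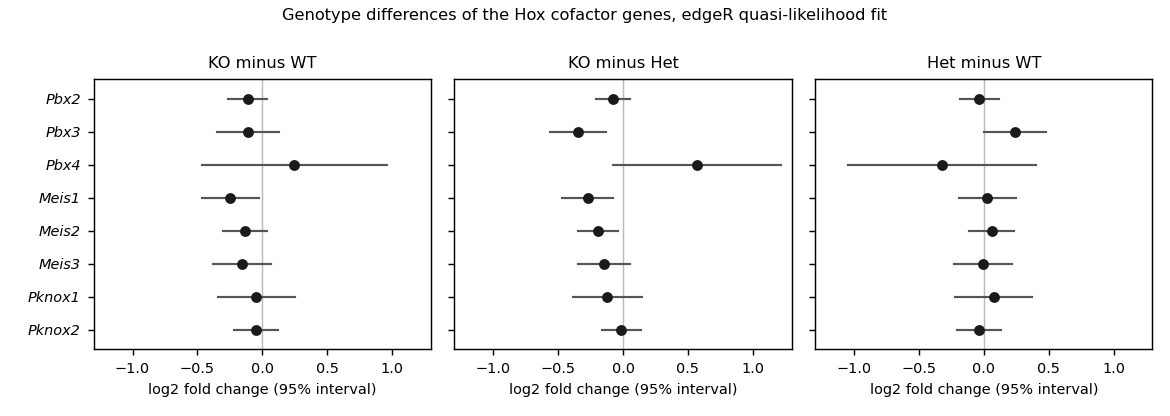
Log2 fold change (points) with its 95% interval (lines) for the 8 genes in KO minus WT, KO minus Het and Het minus WT, from the edgeR fit. Of the points in the first and the second comparison 7 of 8 lie below 0, the widest intervals are those of Pbx4, and no gene was called after adjustment over all tested genes.

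Among the KO libraries, KO 1-3 lay farthest from the others. It was the lowest library for 7 of the 8 genes and the highest for Pbx4, where 25.5% of the tested genes were lowest in it. Its deviation from the mean of the 8 libraries on the log2(CPM + 1) scale ran from -0.30 for Meis1 to 0.61 for Pbx4, with a median of -0.26 over the 8 genes. KO 2-2 and KO 2-3 each lay below the mean for 5 of the 8 genes, with medians of -0.029 and -0.072. Without KO 1-3 the median over the 8 genes was -0.057 in KO minus WT and -0.049 in KO minus Het, with 6 of 8 below 0 in both. For KO against the WT and Het average, Meis1 went from -0.26 to -0.19, Meis2 from -0.16 to -0.092, Meis3 from -0.15 to -0.059 and Pbx4 from 0.41 to 0.11 when KO 1-3 was left out. Pknox1 and Pknox2 then lay above 0, at 0.015 and 0.024.

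**Figure D4:**
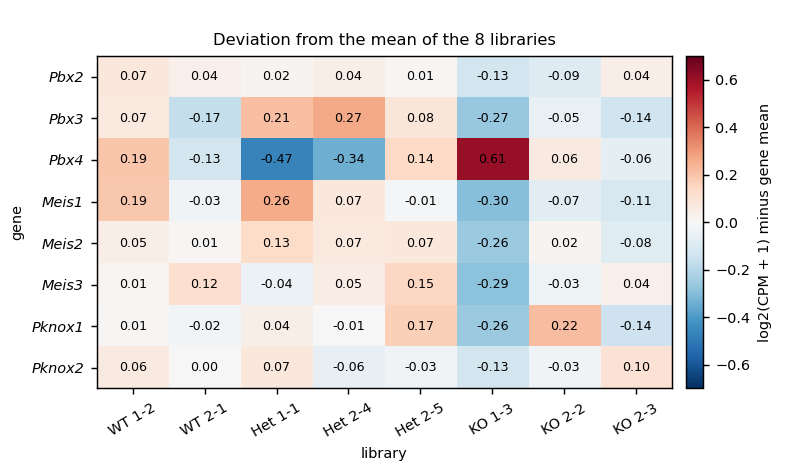
Deviation of log2(CPM + 1) from the gene's mean over the 8 libraries, 1 row per gene and 1 column per library, blue below and red above the mean. The KO 1-3 column holds the lowest value of 7 genes, from -0.30 to -0.13, and the highest of Pbx4, 0.61.

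Within the column sets the differences had the same direction for most members but unequal size. In set 1, with 1 library of each genotype, Meis1 was -0.52 in KO against the average over the WT and Het libraries, and in set 2, with 2 KO, 2 Het and 1 WT library, -0.11. The values were -0.35 and -0.083 for Meis2, -0.41 and -0.16 for Pbx3, -0.27 and -0.10 for Meis3, and 0.75 and 0.11 for Pbx4. For Pbx3 and Pknox1 the direction within set 2 depended on the control, being 0.074 and 0.055 against the WT library alone and -0.27 and -0.045 against the Het libraries. Pknox2 changed direction, from -0.20 in set 1 to 0.065 in set 2. Column set 1 holds KO 1-3 and only libraries high in Xist, so these cannot be told apart there.

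The library KO 1-3, lowest for most of the cofactors, held the lowest sum of some trunk tissue markers and the highest of others. The summed level of 8 markers of the lateral plate and hindlimb field was 577 to 587 CPM in WT and 552 to 598 CPM in Het. In KO it was 460.3 to 526 CPM, lowest in KO 1-3. Of the 8, 6 lay below 0 in KO minus the WT and Het average and 2 were called lower. Hand1 and Foxf1 went the other way. Hand1 was at 77.7 to 87.6 CPM in KO and 57.0 to 81.5 CPM in the others. Foxf1 was at 63.4 to 74.8 CPM in KO and 45.3 to 73.6 CPM in the others. The 8 markers of the presomitic mesoderm and somites summed to 232 CPM in KO 1-3, but to 359 and 342 CPM in KO 2-2 and KO 2-3. Those sums lay above the 316 to 339 CPM of WT and the 306 to 320 CPM of Het. Tbx6 went the other way, at 60.3 CPM in KO 1-3 and 44.6 to 57.5 CPM in the others, and Mesp2 was lowest in Het 2-4. The 4 markers of gut endoderm summed to 123 CPM in KO 1-3 and to 82.2 to 101 CPM in the others. The 6 tailbud markers also had their highest sum in KO 1-3, at 592 CPM against 385 to 545 CPM. Of them Cdx2 and Cyp26a1 were highest in that library, at 223 and 118 CPM. T, Wnt3a and Nkx1-2 were highest in WT 2-1 and Fgf8 in KO 2-2. The 6 markers of differentiating neurons summed to 39.1 to 40.0 CPM in KO and to 45.6 to 55.0 CPM in the others, but without Isl1, which is also on the hindlimb list, the other 5 summed to 20.03 to 21.5 CPM in KO and to 16.2 to 22.0 CPM in the others. Isl1 alone was at 17.6 to 19.1 CPM in KO and at 25.4 to 38.8 CPM in the others. The 5 markers of intermediate mesoderm summed to 102 CPM in KO 1-3 and to 77.0 to 87.1 CPM in the others, and 1 of them was called lower in KO minus the WT and Het average. The 4 endothelial markers had their highest sum in KO 1-3 too, at 342 CPM against 264 to 327 CPM. Of them only Kdr was highest there, at 131 CPM against 67.5 to 92.2 CPM. Pecam1, Cdh5 and Tie1 were highest in Het 1-1. No marker of these 7 lists was at 0 in any library. The part of cell make-up in the values of the cofactors was not tested, and in bulk tissue fewer cells of a type and less RNA per cell cannot be told apart.

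**Figure D5:**
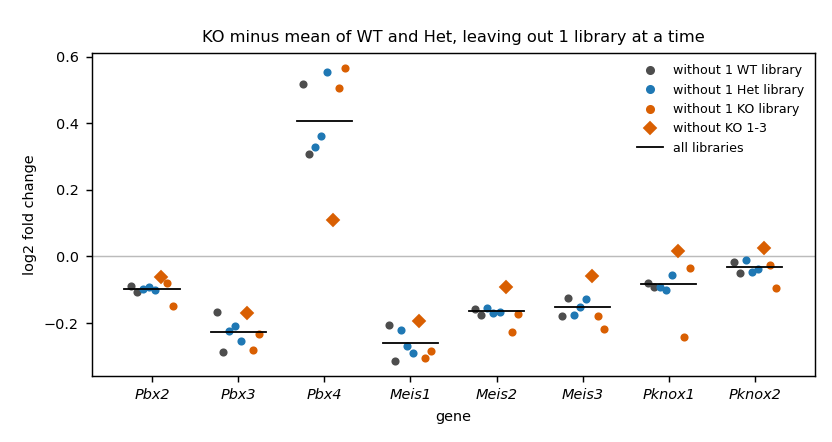
Log2 fold change of each gene in KO against the WT and Het average with all libraries (black line) and with each library left out in turn (points, coloured by the genotype of the library left out; the diamond leaves out KO 1-3). The diamond is the point nearest to 0 or past it for Pbx2, Pbx4, Meis1, Meis2, Meis3, Pknox1 and Pknox2, and Meis1 stays between -0.31 and -0.19.

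The Hox genes, whose products these proteins bind, are given by paralogue group. Of the 12 Hox genes of groups 10 to 13, 10 were tested. All 10 lay below 0 in KO minus WT, KO minus Het and KO minus the WT and Het average, with medians of -1.46, -1.49 and -1.48. In these comparisons 2, 6 and 8 of them were called lower. In fits without 1 library the counts were 0 to 6, 1 to 6 and 2 to 8, with the fewest called without WT 1-2 or KO 2-2 in the first, without Het 1-1, Het 2-4 or KO 2-2 in the second, and without Het 1-1, Het 2-4 or WT 1-2 in the last. Of the 15 genes of groups 5 to 9, 0 were called in KO minus WT and 1 was called higher in KO minus Het, Hoxb9 (0.48 ± 0.07, edgeR adjusted p = 0.0407). Hoxb9 was called in 3 of the 8 fits without 1 library, not without Het 1-1, Het 2-4, Het 2-5, KO 2-2 or WT 2-1. In KO minus the WT and Het average, Hoxb9 was again the 1 gene of groups 5 to 9 called (0.48 ± 0.07, edgeR adjusted p = 0.0159). Its value there was 0.41 to 0.53 over the fits without 1 library, and the call was lost without Het 1-1, without Het 2-4 or without WT 1-2. Of the 12 of groups 1 to 4, 0 were called in any of these comparisons. The comparisons with KO share the KO libraries.

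Other genes around the cofactors were counted by list. Of the 9 other TALE homeobox genes 8 were tested, and 1 was called, Irx3, a neural tube regulator, which rose in KO minus Het (0.39 ± 0.06, edgeR adjusted p = 0.0330) and in KO minus the WT and Het average (0.35 ± 0.05, edgeR adjusted p = 0.0174). Irx3 was called in 2 and 3 of the 8 fits that left out 1 library, and was not called without Het 1-1, Het 2-4, Het 2-5, WT 1-2 or WT 2-1 in either, nor without KO 2-2 in the first. The list medians were 0.00054 and 0.0024. Irx3 is also on the list of 8 neural tube markers, and the other 7 summed to 122 to 155 CPM in WT, 133 to 149.7 CPM in Het and 129.7 to 155 CPM in KO, with the genotypes overlapping. Of 10 genes of PBX- and MEIS-interacting proteins 0 were called in any comparison, with medians between -0.0085 and 0.011. Pbxip1, whose product binds PBX proteins, was at 0.11 ± 0.12 in KO minus WT (edgeR adjusted p = 0.884).

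Of 16 genes reported as targets of PBX and MEIS in mouse embryos, all were tested and 0 were called, with 11 of 16 below 0 and a median of -0.13 in KO minus WT and in KO minus Het. Epha2, which encodes an ephrin receptor, had the smallest p, at -0.68 ± 0.16 in KO minus WT (edgeR adjusted p = 0.256) and -0.70 ± 0.13 in KO minus the WT and Het average (edgeR adjusted p = 0.0633). Of 16 retinoic acid pathway genes 0 were called and 8 lay below 0 in KO minus WT, with a median of 0.030. Aldh1a2, the main enzyme of retinoic acid synthesis in the embryo trunk and also a member of the target list, was at -0.20 ± 0.08 (edgeR adjusted p = 0.652).

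The loci around the members held 1 called gene. Within 100 kb of Pbx2, which lies in the MHC region, 10 genes were tested, and Notch4 (chromosome 17, 34564268 to 34588503), an endothelial Notch receptor gene, fell in KO minus the WT and Het average (-0.54 ± 0.07, edgeR adjusted p = 0.0159). It was short of the threshold in KO minus WT (edgeR adjusted p = 0.0554) and KO minus Het (edgeR adjusted p = 0.0518), and the call of KO against the average was lost without Het 1-1, Het 2-4, WT 1-2 or WT 2-1. The 4 endothelial markers summed to 299 to 301 CPM in WT, 282 to 327 CPM in Het and 264 to 342 CPM in KO, the KO range spanning the others. Within 100 kb of the other 7 genes 0 were called. Genes whose spans overlap a member were low: Gpsm3, which overlaps the annotated start of Pbx2 on the same strand, had 62 to 104 reads per library against 3333 to 3879 for Pbx2. The 5 genes that overlap Meis1 had at most 20 reads in a library. The 2 tested genes that overlap Pknox1, AC166172.4 and AC166575.1, had at most 35 and 69 reads against 425 to 603 for Pknox1, and the kit named in the labels does not mark strand. The 1 gene that overlaps Pbx3 had 0 reads, and the 4 that overlap Pknox2 at most 2.

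Likeness of pattern was measured as the root mean square difference of log2(CPM + 1) over the 8 libraries, each gene centred on its mean, against 16261 other tested genes. The nearest genes to Meis2 were Hspd1 (0.019) and Syncrip (0.022), where the spread of Meis2 about its own mean was 0.11 on the same measure. The nearest to Meis1 were Efnb3 (0.044) and Ddx3x (0.050), with a spread of 0.16. For Meis3 they were Pea15a (0.022) and Wdr18 (0.027), against a spread of 0.13. Pbx2 was nearest to Pitpna and Rnf4 (both 0.021, spread 0.067), Pbx3 to Gm1818 (0.039) and Gpr62 (0.059, spread 0.18) and Pbx4 to Oxld1 (0.098) and Rab33a (0.10, spread 0.31). Pknox1 was nearest to 1700048O20Rik (0.049) and Mdn1 (0.052, spread 0.14), and Pknox2 to Xrcc5 and Trim28 (both 0.020, spread 0.072). Being the smallest of all distances, these are a description and show no tie between the genes. No other cofactor was among the 2 nearest genes of any of the 8. The spread between libraries of 1 genotype was 0.060 (pooled SD, log2) for Pbx2, smaller than that of all but 9.85% of the tested genes, 0.13 for Meis1 and 0.32 for Pbx4, where the median of the tested genes was 0.14.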

How the data were processed

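Per the file headers, the deposited table holds unnormalized read counts of 55573 genes, with exonic lengths, positions and symbols. The submitters' processing notes list HTSeq 0.6.1, HISAT2 2.0.1, cutadapt 1.9.1 and the build GRCm38, without roles. Annotation release and strand setting were not given in the sources used here. All 8 deposited FPKM columns were not used, and FPKM was computed from the counts, TMM-scaled totals and exonic lengths. Columns were assigned to genotypes by name only.

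edgeR 4.0.16 (R 4.3.3) was used with TMM scaling, the default expression filter (16262 genes kept) and the quasi-likelihood test, with all 8 libraries in 1 fit and p-values adjusted over all tested genes. Standard errors were derived from the F statistic. Alternatives were limma 3.58.1 on log2(FPKM + 1) or log2(FPKM + 0.1), DESeq2 1.42.0, its size factors within edgeR, other filters, fits of only the libraries compared, the column set as a term, and leaving out each library. The test was tested on simulated counts. The members and lists were chosen with earlier results of these data known. Genes were named by rule: the 8 members, called genes of the lists or those with the smallest p, called or overlapping genes within 100 kb, and the 2 nearest genes by pattern. Some genes of the lists are not reported here by name. Protein sequences were not used here.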

Additional observations from a re-analysis of the deposited data

How the results depend on the processing

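No paired analysis was possible because the column names carry no sample number of the labels. With the column set (the first number of the column name) as a term in the fit, 0 cofactors were called in each comparison, and of all genes 19 in KO minus WT, 47 in KO minus Het, 0 in Het minus WT and 65 in KO minus the WT and Het average. The count of cofactors called stayed at 0 in every comparison and alternative except KO against the WT and Het average with no filter on low counts, where it was 1 (Meis1). Apart from fits that left out 1 library, no member changed direction. Leaving out 1 library turned the direction of KO minus WT for Pbx3 (-0.23 to 0.018), Pbx4 (-0.052 to 0.47), Pknox1 (-0.20 to 0.053) and Pknox2 (-0.11 to 0.0058), of KO minus Het for Pknox2 (-0.076 to 0.042), of Het minus WT for Meis1 (-0.082 to 0.14) and Meis3 (-0.061 to 0.043), and of KO minus the WT and Het average for Pknox1 (-0.24 to 0.015) and Pknox2 (-0.094 to 0.024). The turns came without KO 1-3 for Pbx4, Pknox1 and Pknox2, without KO 2-3 for Pknox1, without WT 1-2 for Pbx3, without Het 1-1 for Pknox2, Meis1 and Meis3, and without WT 2-1 for Meis1 and Meis3; the cause was not tested. Over all alternatives the number of all genes called ran from 1 to 205 in KO minus WT (6 in the reported fit), 2 to 437 in KO minus Het (31), 0 to 11 in Het minus WT (0) and 9 to 514 in KO minus the WT and Het average (54), the highest being with no filter; DESeq2 called 90, 158, 1 and 199. In CPM, which is not per length, Meis2 and not Meis3 made up the largest part of the Meis sum (53.0% to 55.6%). Within 500 kb in place of 100 kb, 1 neighbour was called near Pbx2 and 0 near the others. Restricting the fit to the libraries compared was not a separate alternative for KO against the WT and Het average. The 33 to 89 reads of Pbx4 per library limit the precision of its values.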
